A study of Mus musculus with 12 samples.

Results

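The values described here are the mRNA levels of 9 mouse genes that set the breakdown and storage of glycogen and the control of phosphofructokinase in the left ventricle. They are Phkg1, Phka1 and Phkb of the phosphorylase kinase complex, the glycogen phosphorylases Pygm and Pygb, the glycogen synthase Gys1, the branching enzyme Gbe1, and the bifunctional enzymes Pfkfb1 and Pfkfb2. They were taken by symbol from the 18079 genes of the deposited matrix, and all 9 were found in it. The genes were chosen by FPKM values of these same mice, and which comparison was used for the choice is not recorded. Their levels and differences are therefore given as a description. Counts of members that limma called are set beside the share of all genes called, and nothing is read from them, since the same values chose the genes.

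The study asked how hispidulin, a plant flavonoid, acts on hearts under pressure overload. C57BL/6 mice (C57BL/6J in the methods of the study) had aortic banding (AB), a ligature around the descending aorta, or sham surgery. They received hispidulin at 20 mg/kg/day or the solvent DMSO by intraperitoneal injection, from 1 day ahead of surgery until the hearts were taken 4 weeks after it, at an age of 12 weeks. The 2 sham groups (DMSO+Sham and hispidulin+Sham) and the 2 AB groups (DMSO+AB and hispidulin+AB) made 4 groups, with 3 mice and 1 library per mouse in each. The labels name no altered gene in any group. Levels are FPKM, the reads of a gene scaled to the length of its transcript and to the size of the library, so levels of different genes can be set side by side per length.

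Glycogen is the glucose store of the muscle cell. Phosphorylase kinase is a complex of the catalytic γ subunit, the regulatory α and β subunits and calmodulin. It is switched on by calcium and by adrenergic signalling, and it then activates glycogen phosphorylase, which releases glucose 1-phosphate from glycogen. Glycogen synthase and the branching enzyme build the store. The PFKFB enzymes make and remove fructose 2,6-bisphosphate, a small molecule that activates phosphofructokinase, the committed step of glycolysis. Several of these activities have tissue isoforms, named after muscle, brain, liver or heart, and the adult heart is known for using the muscle and brain phosphorylases and the cardiac enzyme of the PFKFB family.

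The libraries were first checked against markers of heart and of other tissues. The summed FPKM of 6 cardiomyocyte genes lay between 29520 and 44890 in the 12 mice. Between DMSO+AB and DMSO+Sham, 5 of these 6 were lower and 1, Ryr2, was called, at a mean of 61.2 against 91.6 FPKM, with a median difference of -0.27 over the 6 against -0.36 over the 9 members and -0.03 over all genes. The 8 skeletal muscle genes summed to between 1.57 and 3.01, with 7 of them under 1 in every mouse, and 4 hepatocyte genes to between 0.2 and 2.31. Nppa, Nppb, Myh7 and Acta1, the classical overload genes, summed to between 452 and 1057 in DMSO+Sham and between 4311 and 16340 in DMSO+AB. The 5 fibroblast markers were all higher in DMSO+AB than in DMSO+Sham, and 2 of the 5 passed the test. Their sums overlapped, at between 311.8 and 381.9 in DMSO+Sham and between 340.1 and 784.2 in DMSO+AB. Between the hispidulin groups all 5 were again higher with AB, with a median difference of 0.16 and 0 called. The part of these shifts in the values below was not tested, and in bulk tissue fewer cells of a type and less RNA per cell cannot be told apart. The library of DMSO+Sham mouse 3 stood apart, with 4.58% of genes off by at least 1 on the log2 scale from the other mice of its group and Actc1 at 2741 against at least 7909 in the 11 other mice. The atrial gene Myl7 stood at 333.05 in hispidulin+Sham mouse 3, 67.54 in DMSO+AB mouse 2 and 42.26 in hispidulin+AB mouse 3, and at or under 15.03 in the 9 other mice. Between DMSO+AB and DMSO+Sham, 2 of the 9 genes were called with all mice, beside 5.21% of all genes. The count was also 2 without DMSO+Sham mouse 3 or hispidulin+Sham mouse 3, and it was 1 without DMSO+AB mouse 2, where 104 of 11617 genes were called in all.

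All 9 genes were expressed in the ventricle, and Pygm and Pygb stood far above the rest. In DMSO+Sham mice, Pygm, the muscle phosphorylase, had 596.6 ± 29.3 FPKM (SD, n = 3 here and for every group below) and Pygb, the brain phosphorylase, 280.8 ± 18.9. Gys1 followed with 58.4 ± 9.45. Pfkfb2, with 23.2 ± 5.34, and Gbe1, with 19.8 ± 3.14, came next and overlapped between mice. Phkb stood at 14.1 ± 0.401, above Phka1 at 11.4 ± 2.35, Phkg1 at 9.41 ± 0.488 and Pfkfb1 at 7.64 ± 3.53, and each neighbouring pair of these last 3 overlapped. After AB the upper 3 places of this order were the same in both treatments, while Phkg1 and Pfkfb1 lay below all other members, in every mouse of both AB groups.

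**Figure D1:**
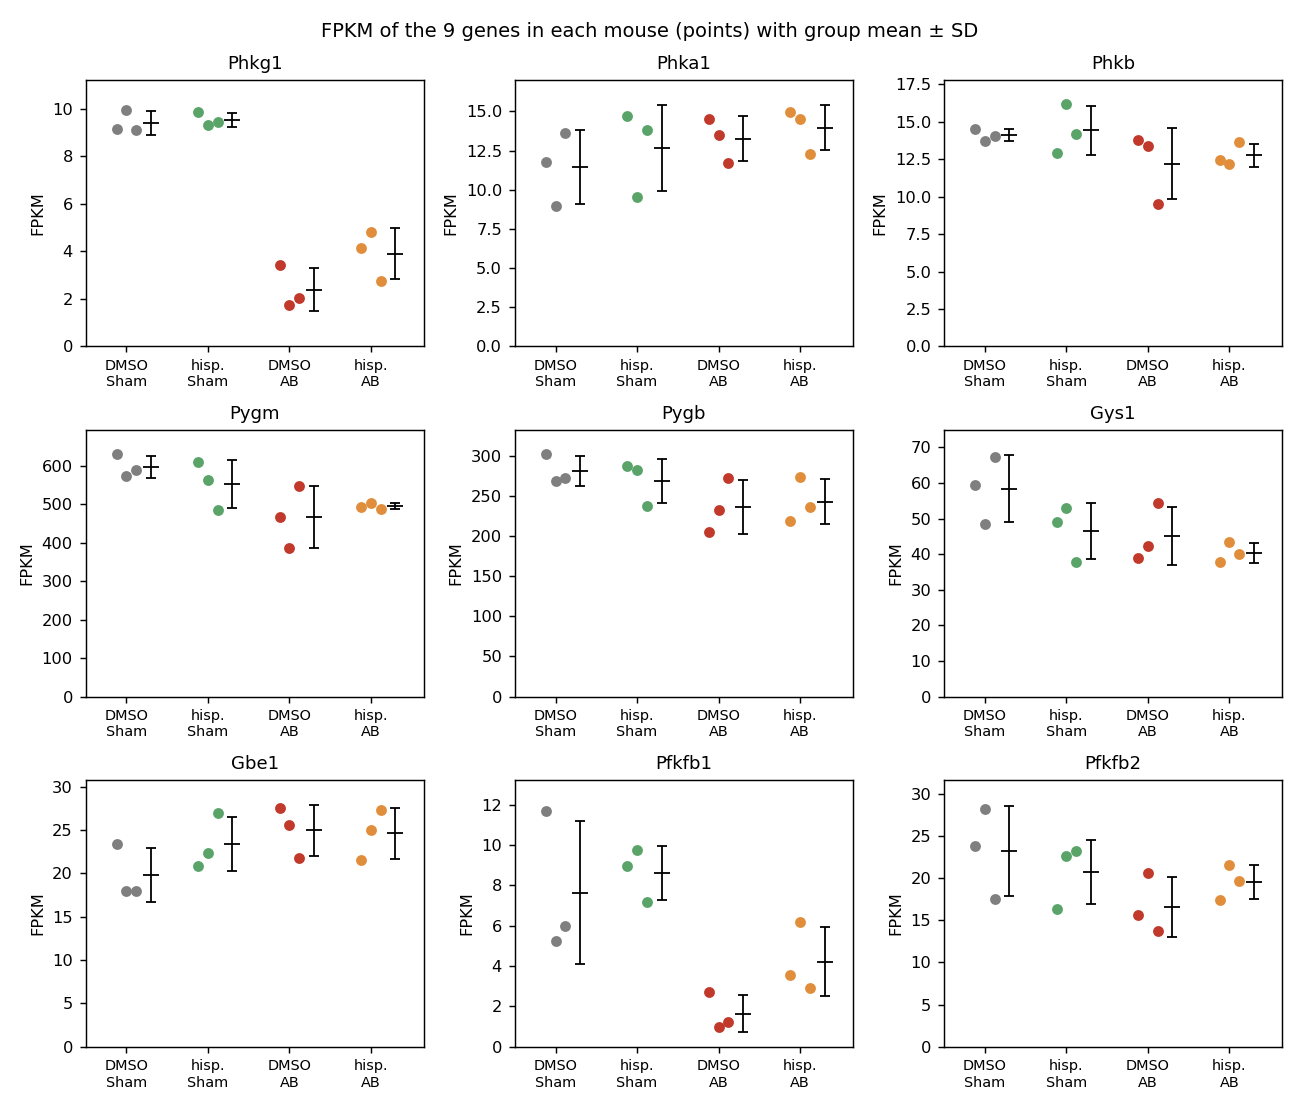
FPKM of the 9 genes in each mouse (points, linear axis from 0) with the group mean ± SD of 3 mice beside them. Phkg1 and Pfkfb1 lie lower in all AB mice than in all sham mice of the same treatment, while the other 7 genes, except Pygm between the DMSO groups, overlap between sham and AB.

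Phkg1 (NCBI Gene 18682) encodes the muscle form of the catalytic γ subunit of phosphorylase kinase. In DMSO+Sham mice it had 9.14, 9.97 and 9.11 FPKM, and in DMSO+AB mice 3.41, 1.75 and 2.03. In hispidulin+Sham mice it had 9.87, 9.32 and 9.43 FPKM, and in hispidulin+AB mice 4.15, 4.82 and 2.74. All 6 sham mice lay in a narrow band, and all 6 AB mice lay below it, with no overlap in either treatment. The mean in DMSO+AB was 25.5% of that in DMSO+Sham, a 3.93-fold lower level. The mean in hispidulin+AB was 40.9% of that in hispidulin+Sham, a 2.44-fold lower level. The differences on the log2(FPKM + 1) scale were -1.65 (SE 0.19) and -1.13 (SE 0.19). The 250 bases upstream of the Phkg1 start, at chr5:129879089-129879338 on the minus strand of GRCm38.p6, are shown because Phkg1 and Pfkfb1 were the members that moved farthest.
Phkg1: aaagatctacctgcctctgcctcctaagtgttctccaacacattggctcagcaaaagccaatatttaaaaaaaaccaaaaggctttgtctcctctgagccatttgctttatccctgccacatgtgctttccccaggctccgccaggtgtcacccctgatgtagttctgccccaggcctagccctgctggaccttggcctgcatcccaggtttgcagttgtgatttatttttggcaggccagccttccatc

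Pfkfb1 (NCBI Gene 18639) encodes a bifunctional enzyme of fructose 2,6-bisphosphate best known from liver and skeletal muscle. In DMSO+Sham mice it had 11.69, 5.25 and 5.97 FPKM, and in DMSO+AB mice 2.69, 0.99 and 1.21. In hispidulin+Sham mice it had 8.95, 9.74 and 7.15 FPKM, and in hispidulin+AB mice 3.56, 6.19 and 2.92. The AB mice again lay below all sham mice of their treatment, but the sham mice were spread more widely than for Phkg1, with DMSO+Sham mouse 1 far above the other two. The mean in DMSO+AB was 21.3% of that in DMSO+Sham, 4.69-fold lower, and the hispidulin+AB mean was 49.0% of that in hispidulin+Sham, 2.04-fold lower. The log2(FPKM + 1) differences were -1.70 (SE 0.31) and -0.92 (SE 0.31), and for a gene this low they understate the ratio of the means. RefSeq lists several starts for Pfkfb1, and gene FPKM does not tell which was used. The window upstream of the start with a match to the MEF2 motif, chrX:150589666-150589915 on the plus strand of GRCm38.p6, is shown with that match in capitals, 113 bases before the start.
Pfkfb1: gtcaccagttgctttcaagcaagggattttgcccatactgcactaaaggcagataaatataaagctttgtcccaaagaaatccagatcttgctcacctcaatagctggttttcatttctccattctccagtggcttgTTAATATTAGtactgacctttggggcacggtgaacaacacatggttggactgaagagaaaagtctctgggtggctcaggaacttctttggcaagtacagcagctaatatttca

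Pfkfb2 (NCBI Gene 18640) encodes the cardiac form of the same enzyme and was the most abundant of its family in every group. It had 23.84, 28.14 and 17.53 FPKM in DMSO+Sham, 15.56, 20.58 and 13.68 in DMSO+AB, 16.35, 22.58 and 23.17 in hispidulin+Sham, and 17.44, 21.49 and 19.59 in hispidulin+AB. DMSO+AB mice tended to the low side, but mouse 2 of that group lay above the lowest DMSO+Sham mouse, and the hispidulin groups covered the same range. The log2(FPKM + 1) differences between AB and sham were -0.45 (SE 0.19) with DMSO and -0.07 (SE 0.19) with hispidulin. One of the Pfkfb2 windows held the E-box CACGTG, 22 bases before the start, and it is shown with the match in capitals (chr1:130715822-130716071, minus strand, GRCm38.p6).
Pfkfb2: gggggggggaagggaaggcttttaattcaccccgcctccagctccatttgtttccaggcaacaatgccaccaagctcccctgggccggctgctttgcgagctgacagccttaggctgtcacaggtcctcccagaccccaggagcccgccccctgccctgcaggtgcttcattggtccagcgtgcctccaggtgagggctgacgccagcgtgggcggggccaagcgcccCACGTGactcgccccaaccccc

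Across the members, 14 upstream windows of 250 bases from RefSeq were searched on both strands, with motifs chosen when the values were known. CACGTG was in 1 of the 14 windows and in 6.02% of all 32851 windows of that length. The MEF2 motif, named for the muscle transcription factors that bind it, was in 1 of the 14 and in 2.92% of all. TNAAGGTCA, the extended half-site bound by estrogen-related receptors, was in 0 of the 14 and in 1.14% of all. The Phkg1 window had no match to any of the 3. These are matches of letters only.

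The regulatory subunits of phosphorylase kinase differed less between sham and AB mice than Phkg1 in the group means. Phka1 (NCBI Gene 18679), the muscle α subunit, had 11.79, 8.94 and 13.61 FPKM in DMSO+Sham and 14.53, 13.52 and 11.72 in DMSO+AB, with overlapping groups. It had 14.71, 9.53 and 13.78 FPKM in hispidulin+Sham and 14.99, 14.54 and 12.31 in hispidulin+AB. The log2(FPKM + 1) differences between AB and sham were 0.21 (SE 0.17) with DMSO and 0.15 (SE 0.17) with hispidulin, on the opposite side of 0 to Phkg1. Phkb (NCBI Gene 102093), the β subunit shared by tissues, had 14.53, 13.74 and 14.02 FPKM in DMSO+Sham and 13.76, 13.39 and 9.48 in DMSO+AB. Mouse 1 of DMSO+AB lay within the sham range, mouse 2 just under it and mouse 3 well below. Phkb had 12.91, 16.15 and 14.21 FPKM in hispidulin+Sham and 12.46, 12.16 and 13.62 in hispidulin+AB, and the log2(FPKM + 1) differences were -0.21 (SE 0.13) and -0.16 (SE 0.13).

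The liver forms of the same subunits were also detected. Phkg2, the other catalytic subunit, had 11.3 ± 2.31 FPKM in DMSO+Sham, 10.5 ± 2.33 in DMSO+AB, 11.1 ± 0.997 in hispidulin+Sham and 11.1 ± 1.49 in hispidulin+AB. Its log2(FPKM + 1) difference between DMSO+AB and DMSO+Sham was -0.10 (95% interval -0.49 to 0.29, limma adjusted p = 0.795). Phkg1 made up 45.9% ± 6.74 of the summed FPKM of both catalytic subunits in DMSO+Sham and 19.3% ± 9.59 in DMSO+AB. The shares were 46.2% ± 2.53 in hispidulin+Sham and 25.8% ± 3.29 in hispidulin+AB. The sum of both subunits was 20.7 ± 1.82 FPKM in DMSO+Sham and 12.9 ± 1.50 in DMSO+AB, and 20.7 ± 0.949 and 15.0 ± 2.52 in the hispidulin groups. Phka2, the liver α subunit, had a mean of between 5.24 and 6.36 FPKM in the 4 groups, and Phka1 held 64.3% ± 8.77 of the α sum in DMSO+Sham and 71.3% ± 1.99 in DMSO+AB.

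The phosphorylases were lower in the mean after AB, by less than the kinase subunit. Pygm (NCBI Gene 19309) had 629.29, 572.74 and 587.77 FPKM in DMSO+Sham and 465.50, 385.31 and 548.27 in DMSO+AB, where the highest AB mouse lay just below the lowest sham mouse. It had 608.45, 562.68 and 484.22 FPKM in hispidulin+Sham and 493.25, 503.58 and 487.84 in hispidulin+AB, which overlapped. The log2(FPKM + 1) differences were -0.37 (SE 0.12) and -0.15 (SE 0.12). Pygb (NCBI Gene 110078) had 302.50, 268.33 and 271.56 FPKM in DMSO+Sham and 205.13, 232.19 and 271.97 in DMSO+AB, overlapping at mouse 3 of the AB group. In the hispidulin groups it had 287.52, 281.79 and 237.34 FPKM after sham surgery and 218.79, 273.16 and 235.74 after AB. Its differences were -0.25 (SE 0.13) and -0.15 (SE 0.13) on the same scale. Pygl, the liver phosphorylase, lay between 1.30 and 2.68 FPKM in all mice.

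The share of Pygm differed between group means by less than its spread among DMSO+AB mice. Pygm was 67.9% ± 0.389 of the summed phosphorylase FPKM in DMSO+Sham and 66.0% ± 3.60 in DMSO+AB, and 67.1% ± 0.663 and 67.0% ± 2.25 in the hispidulin groups after sham surgery and AB. The sum was 879.5 ± 47.6 FPKM in DMSO+Sham, 704.7 ± 105.1 in DMSO+AB, 822.2 ± 89.4 in hispidulin+Sham and 739.3 ± 34.8 in hispidulin+AB.

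**Figure D2:**
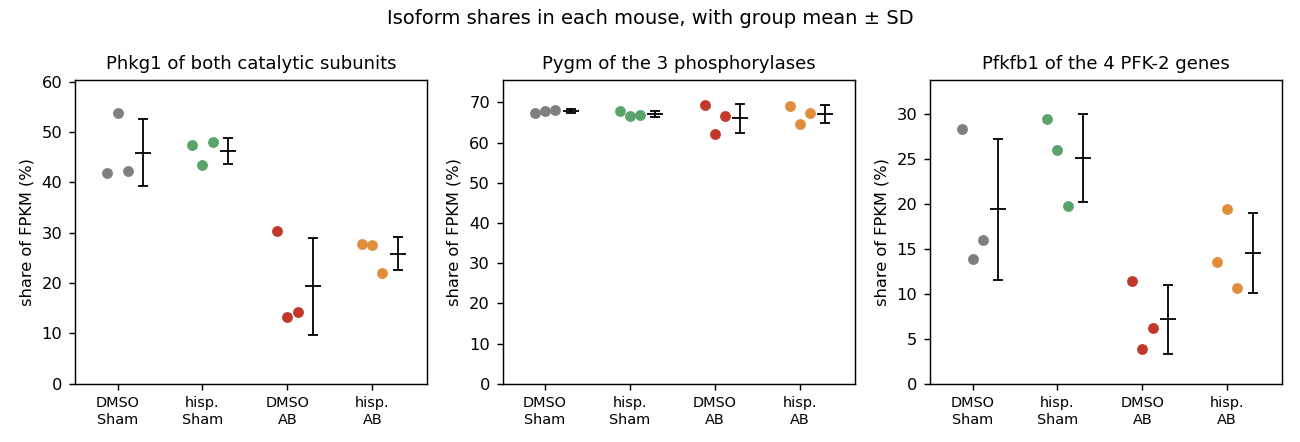
Share of an isoform in the summed FPKM of its family, in percent, in each mouse (points) with the group mean ± SD of 3 mice. The Phkg1 share is 45.9% in DMSO+Sham and 19.3% in DMSO+AB and the Pfkfb1 share 19.4% and 7.15%, while the Pygm share stays between 62.2% and 69.3% in all 12 mice.

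On the synthesis side, the muscle glycogen synthase and the branching enzyme lay on opposite sides of 0. Gys1 (NCBI Gene 14936) had 59.31, 48.49 and 67.32 FPKM in DMSO+Sham and 38.96, 42.27 and 54.40 in DMSO+AB, with mouse 3 of the AB group inside the sham range. It had 49.03, 52.94 and 37.79 FPKM in hispidulin+Sham and 37.86, 43.42 and 39.97 in hispidulin+AB. The log2(FPKM + 1) differences were -0.36 (SE 0.16) with DMSO and -0.19 (SE 0.16) with hispidulin. Set against the phosphorylases, Gys1 had 6.66 ± 1.06 FPKM per 100 FPKM of Pygm and Pygb in DMSO+Sham and 6.43 ± 0.547 in DMSO+AB, and 5.66 ± 0.541 and 5.48 ± 0.142 in the hispidulin groups. Gys2, the liver synthase, was at or under 0.04 FPKM in every mouse.

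Gbe1 (NCBI Gene 74185), which adds the branch points of glycogen, had 23.41, 18.01 and 17.94 FPKM in DMSO+Sham and 27.55, 25.62 and 21.72 in DMSO+AB. It had 20.88, 22.33 and 26.93 FPKM in hispidulin+Sham and 21.50, 25.04 and 27.30 in hispidulin+AB. Only DMSO+Sham mice 2 and 3 lay apart from the rest, on the low side. The log2(FPKM + 1) differences between AB and sham were 0.32 (SE 0.14) and 0.07 (SE 0.14).

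Within the PFKFB family, Pfkfb2 held the largest share in each group and Pfkfb1 a share whose mean was lower in the AB than in the sham group of either treatment. Pfkfb1 was 19.4% ± 7.80 of the summed FPKM of the 4 family genes in DMSO+Sham and 7.15% ± 3.85 in DMSO+AB, and 25.1% ± 4.88 and 14.5% ± 4.49 in the hispidulin groups. Pfkfb2 was 59.6% ± 13.9 and 72.1% ± 7.29, and 59.4% ± 5.25 and 68.3% ± 2.44. The sum of the family was 38.9 ± 2.13 FPKM in DMSO+Sham, 22.9 ± 3.20 in DMSO+AB, 34.7 ± 3.75 in hispidulin+Sham and 28.6 ± 2.95 in hispidulin+AB. Pfkfb3, an inducible form, had 12.53 FPKM in DMSO+Sham mouse 3, the library that stood apart, and between 2.55 and 4.47 in the other mice. Pfkfb4 lay between 1.11 and 1.70 FPKM.

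**Figure D3:**
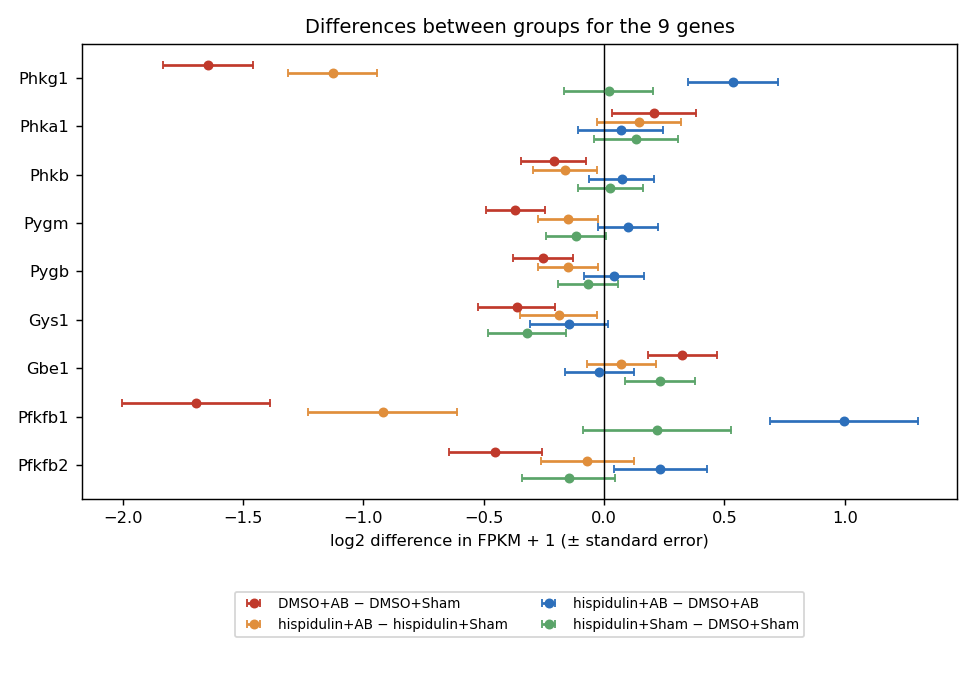
Differences between groups for the 9 genes on the log2(FPKM + 1) scale (x axis, points with standard errors from limma), for AB against sham within each treatment and hispidulin against DMSO within each surgery. Phkg1 lies at -1.65 and -1.13 and Pfkfb1 at -1.70 and -0.92 for AB against sham, and the other 7 genes lie between -0.45 and 0.32.

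To set the members beside all genes, limma was fitted to log2(FPKM + 1) of the 12 mice together. The fit held 11664 genes that reached an FPKM of 1 in 3 or more mice, among them all 9 members. Between DMSO+AB and DMSO+Sham, 2 of the 9, Phkg1 and Pfkfb1, were called at an adjusted p under 0.05, both lower, beside 5.21% of all genes called and 2.71% called lower. All mice of one group lay beyond those of the other for 3 of the 9, Phkg1, Pfkfb1 and Pygm, all lower in AB, beside 10.8% of all genes for that direction. Members were lower in 7 of 9 cases, beside 55.8% of all genes, with a median difference of -0.36 against -0.03 over all genes. The Pfkfb1 call was lost, with the same direction, when DMSO+Sham mouse 1, DMSO+AB mouse 2 or DMSO+AB mouse 3 was left out. It was also lost in a fit of only the 6 mice compared, and when the model held the series of animal numbers. That model also sets DMSO+Sham mouse 1 aside, since this mouse is alone in its series. It is therefore no separate check from leaving that mouse out.

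Between hispidulin+AB and hispidulin+Sham, limma called 0 of the 9, beside 0% of all genes, and 2 of the 9 had an unadjusted p under 0.05, beside 7.26% of all genes. A fit that paired mice by replicate number also called 0 of the 9, and 17 of all genes. The 2 with a low unadjusted p were again Phkg1 and Pfkfb1, and they were also the members whose groups did not overlap, beside 11.8% of all genes not overlapping and lower. The median difference of the 9 was -0.15 against -0.02 over all genes. Averaged over DMSO and hispidulin, Phkg1 differed by -1.39 (SE 0.13) and Pfkfb1 by -1.31 (SE 0.22) between AB and sham, and these were the 2 of 9 called, both lower, beside 7.39% of all genes called and 3.87% called lower.

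Hispidulin was then set against DMSO after the same surgery. After AB, Phkg1 was 1.63-fold and Pfkfb1 2.59-fold of the DMSO mean with hispidulin, with log2(FPKM + 1) differences of 0.54 (SE 0.19) and 1.00 (SE 0.31). The Pfkfb1 groups did not overlap, with 3.56, 6.19 and 2.92 FPKM against 2.69, 0.99 and 1.21, and the distance between the nearest mice was small; 4.23% of all genes were higher without overlap. The Phkg1 groups overlapped, since hispidulin+AB mouse 3 lay below DMSO+AB mouse 1. Limma called 0 of the 9, beside 0% of all genes, and 2 of the 9, Phkg1 and Pfkfb1, had an unadjusted p under 0.05, beside 3.1% of all genes. The other 7 members differed by between -0.15 and 0.23.

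After sham surgery the 2 treatments overlapped for each of the 9 genes, beside 5.6% of all genes without overlap, and limma called 0 of 9, beside 0% of all genes, with 0 of 9 at an unadjusted p under 0.05, beside 2.46% of all genes. Phkg1 differed by 0.02 (SE 0.19) and Pfkfb1 by 0.22 (SE 0.31). The farthest from 0 was Gys1, at -0.32 (SE 0.16). The interaction, the difference between the AB effects with hispidulin and with DMSO, was 0.52 (SE 0.26) for Phkg1 and 0.78 (SE 0.44) for Pfkfb1. Limma called 0 of the 9 for it, beside 0% of all genes, and 0 of the 9 had an unadjusted p under 0.05, beside 2.48% of all genes.

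The AB mice also differed among themselves in Phkg1 and Pfkfb1 in the same order. In DMSO+AB, mouse 1 was highest and mouse 2 lowest for both genes, and in hispidulin+AB, mouse 2 was highest and mouse 3 lowest for both. In DMSO+Sham the order differed, with mouse 2 highest for Phkg1 and mouse 1 for Pfkfb1. The spread of Phkg1 among mice, as SD in percent of the mean, was 5.19% and 3.05% in the sham groups and 37.1% and 27.2% in the AB groups with DMSO and hispidulin. A lower mean raises this percentage, and the SD itself was 0.488 and 0.291 FPKM against 0.889 and 1.06. For Pfkfb1 the percentages were 46.2% and 15.4% in the sham groups and 56.7% and 41.0% in the AB groups. Animal numbers in the labels start with 5 or 6, save for DMSO+Sham mouse 1. Within these number series, the AB differences of Phkg1 were -1.86 and -1.54 with DMSO and -1.50 and -0.93 with hispidulin, and those of Pfkfb1 -1.50 and -1.36, and -1.40 and -0.51. Pygm differed between the DMSO groups by -0.06 in the series starting with 5 and -0.47 in that starting with 6, Pygb by 0.02 and -0.31, Gys1 by 0.16 and -0.72, and Pfkfb2 by -0.99 and 0.03, from 1 or 2 mice a group in each series. The sign of Pygb, Gys1 and Pfkfb2 thus differed between the series.

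Other genes of the same pathways were followed in a list of 36, of which 32 passed the filter on low values. Between DMSO+AB and DMSO+Sham, 3 of the 32 rose and 2 fell at an adjusted p under 0.05, beside 5.21% of all genes called. The median difference of the 32 was 0.02, beside -0.03 over all genes. With hispidulin, limma called 0 of the 32 between AB and sham, beside 0% of all genes, and 4 of the 32 had an unadjusted p under 0.05, beside 7.26% of all genes. Averaged over both treatments, the same 5 genes were called, beside 7.39% of all genes, and Fbp2 kept that call in 15 of 21 alternatives, at a limma adjusted p of up to 0.0647. It was lost when the model held the series of animal numbers, and without DMSO+Sham mouse 1, hispidulin+Sham mouse 1 or 2, DMSO+AB mouse 2 or hispidulin+AB mouse 3. The series model also sets DMSO+Sham mouse 1 aside, since this mouse is alone in its series.

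Among the regulators of glycogen synthesis, Ppp1r3c, which brings protein phosphatase 1 to glycogen, had 57.59, 62.18 and 46.33 FPKM in DMSO+Sham and 125.44, 118.88 and 148.02 in DMSO+AB. All DMSO+AB mice lay far above the sham mice, and Ppp1r3c rose by 1.23 on the log2(FPKM + 1) scale (SE 0.15, limma adjusted p = 0.00376). With hispidulin it had 74.60, 88.53 and 104.44 FPKM after sham surgery and 128.16, 102.76 and 115.44 after AB, a difference of 0.38 (SE 0.15, limma adjusted p = 0.634). The hispidulin+Sham mice lay above all DMSO+Sham mice, by 0.68 (SE 0.15), with an unadjusted limma p of 0.000714 and an adjusted p of 1.00. Of the 7 glycogen-targeting subunits on the list, 5 passed the filter on low values, and Ppp1r3c was the only one of these 5 called in any of the 6 comparisons.

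Ugp2, which makes the UDP-glucose used by glycogen synthase, had 147.39, 123.33 and 111.28 FPKM in DMSO+Sham and 191.09, 247.39 and 192.94 in DMSO+AB. It rose by 0.72 (SE 0.14, limma adjusted p = 0.0181), against 0.32 (SE 0.14, adjusted p = 0.669) with hispidulin. The call with DMSO was lost without DMSO+AB mouse 2 and when only the 6 mice compared were fitted, where the limma adjusted p was 0.135. In the same comparison Gys1, the synthase that uses UDP-glucose, lay on the other side of 0.

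At the phosphofructokinase step, Pfkp, the platelet form, had 20.51, 23.63 and 17.17 FPKM in DMSO+Sham and 34.71, 50.35 and 53.11 in DMSO+AB, and rose by 1.12 (SE 0.17, limma adjusted p = 0.00666). Fbp2, the muscle fructose bisphosphatase, which runs the opposite reaction, had 24.53, 18.90 and 23.29 FPKM in DMSO+Sham and 14.47, 8.60 and 6.79 in DMSO+AB, and fell by 1.14 (SE 0.23, limma adjusted p = 0.02). The Fbp2 call was lost in 5 of 22 alternatives, at a limma adjusted p of up to 0.14: without DMSO+Sham mouse 1, DMSO+AB mouse 2 or DMSO+AB mouse 3, when the model held the series of animal numbers, and in a fit of only the 6 mice compared. In the fit of only the 6 mice compared, Pfkp was not called either (limma adjusted p = 0.0906). The series model also sets DMSO+Sham mouse 1 aside, since this mouse is alone in its series. With hispidulin the differences were 0.46 (SE 0.17, adjusted p = 0.599) for Pfkp and -0.31 (SE 0.23, adjusted p = 0.862) for Fbp2. Pfkm, the muscle form and the most abundant phosphofructokinase here, had 390.0 ± 72.1 FPKM in DMSO+Sham and 329.3 ± 43.6 in DMSO+AB, with overlapping mice and a limma adjusted p of 0.404.

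**Figure D4:**
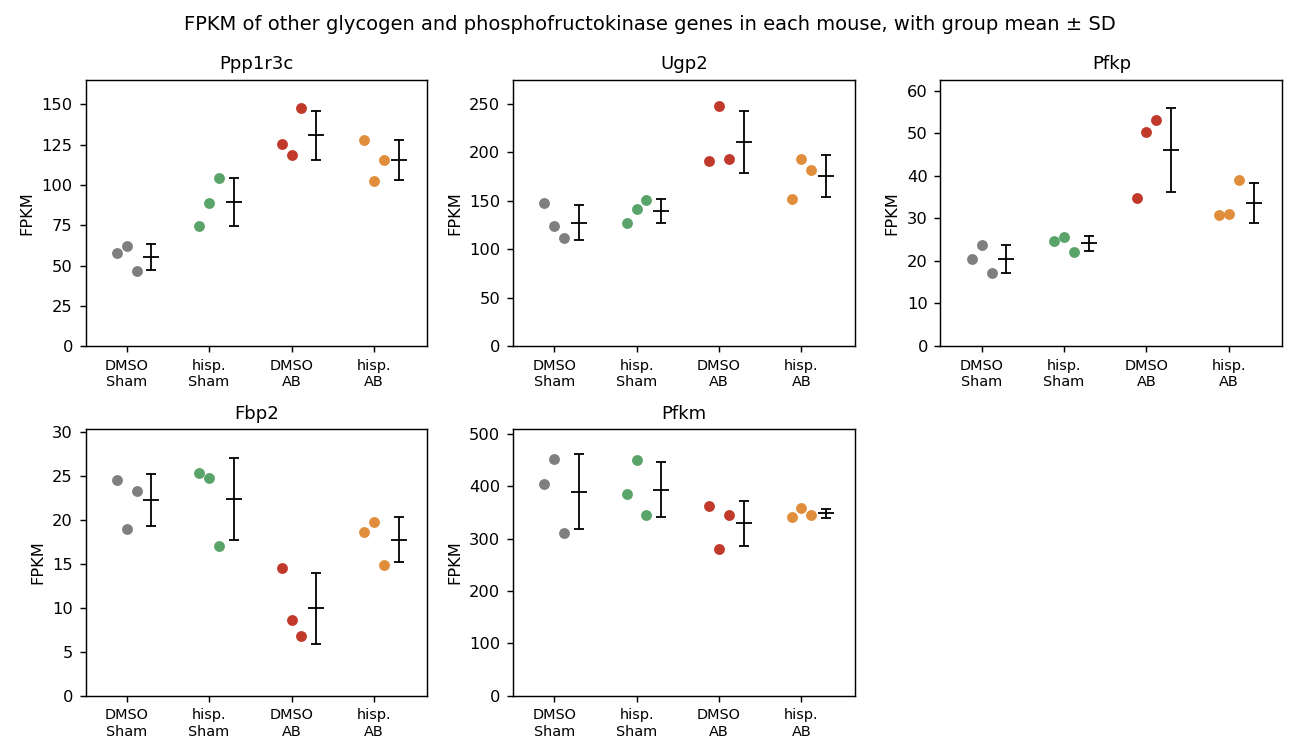
FPKM of Ppp1r3c, Ugp2, Pfkp, Fbp2 and Pfkm in each mouse (points, linear axis from 0) with the group mean ± SD of 3 mice. Between DMSO+Sham and DMSO+AB the mice do not overlap for the first 4 genes, with Ppp1r3c, Ugp2 and Pfkp higher and Fbp2 lower after AB, while Pfkm overlaps.

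Some values of the members may hold reads of other genes, since whether reads were counted by strand is not given in the sources used here. Of the 50-base stretches of Phkg1 transcripts in GENCODE, 11.1% also occurred in another gene, most of them in Sumf2, which overlaps Phkg1 on the opposite strand. Sumf2 had 4.86 ± 0.114 FPKM in DMSO+Sham and 4.68 ± 0.970 in DMSO+AB, a difference of -0.06 (SE 0.13, limma adjusted p = 0.83). Apex2, a DNA repair nuclease whose gene meets Pfkfb1 at its start on the opposite strand, shares 0.727% of the Pfkfb1 stretches. Apex2 had 5.42, 3.54 and 5.26 FPKM in DMSO+Sham and 2.94, 2.31 and 2.21 in DMSO+AB, and fell by 0.71 (SE 0.16, limma adjusted p = 0.0283). Pfkfb2 shared 17.3% of its stretches, mostly with the gene model Gm29427, Gys1 shared 5.79%, and Pygm and Pygb shared 0.405% and 0.273% with each other. Phka1, Phkb and Gbe1 shared 0%. Phkg2, which enters the Phkg1 share above, shared 19.2% of its stretches, 18.2% with Ccdc189.

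The genes most like the members were those whose log2(FPKM + 1) correlated best, over the 12 mice, with the mean of the 9 standardized members. Among the 5 closest were Acot2, a mitochondrial thioesterase of fatty acid metabolism, with a Pearson r of 0.977, P3h4 with 0.951, Klhl33 with 0.951 and Apex2 with 0.950. Acot2 had 51.9 ± 12.5 FPKM in DMSO+Sham and 30.9 ± 3.58 in DMSO+AB, and 51.9 ± 5.81 and 36.6 ± 4.91 in the hispidulin groups. Klhl33 had 7.18 ± 4.20 and 1.51 ± 0.354 FPKM, and 6.06 ± 1.12 and 3.41 ± 0.786. The 12 points share the split into sham and AB mice. All 9 members count equally in the mean, and Pfkfb1 and Phkg1 correlated with it most, with an r of 0.957 and 0.886, while Gbe1 and Phka1 had -0.26 and -0.24.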

How the data were processed

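RNA of the left ventricle of 12 mice was sequenced as single-end reads of 50 bases, after selection of polyadenylated RNA, on a BGISEQ-500. The authors deposited FPKM for 18079 genes, rounded to 0.01, in 1 table. The submitters' processing notes name HISAT2 2.0.4, Bowtie2 2.2.5, RSEM 1.2.12 and DESeq2 1.4.5, the last with no stated role. The genome build, the annotation and the use of strand are not given in the sources used here. Read counts were not used here. Ratios of low values lay within 0.1 of a whole number in 30.1% of cases, against 20% if evenly spread, so the depth is unknown and no counting interval is given. Sums of FPKM per mouse ranged from 535200 to 567000.

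Symbols were found for 17947 genes (99.3%) in the RefSeq gene table. To FPKM as deposited 1 was added ahead of the log2 transform. The 11664 genes that reached an FPKM of 1 in 3 or more libraries were fitted with limma 3.58.1 in R 4.3.3, with 1 mean per group (8 error degrees of freedom), two-sided moderated tests with a mean-variance trend and Benjamini-Hochberg adjustment over all genes tested. There were 6 comparisons. Groups came from the sample titles, and each sample is a separate mouse. The members, gene lists, motifs and tests were chosen with earlier results of these data known. All members were named. Of the 36 pathway genes, those called in any comparison, paralogs of members and Pfkm were named, and the 5 genes most like the members by Pearson correlation. One gene that met these rules is not reported here. Apex2 and Sumf2 as neighbours were chosen after their values were seen.

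Replicate numbers belong to different animals. Residuals of same-numbered mice correlated by -0.0887 between the DMSO groups, 0.191 between the hispidulin groups (each pair at least 0.147), 0.0975 between the AB groups and 0.229 between the sham groups (each pair at least 0.126). The main fit held no pairing, and the replicate number entered only 1 alternative fit, as a block over all groups. The 22 alternative fits left out each of the 12 libraries in turn, used the replicate number as a block or the animal number series as a covariate, or held only the libraries compared. Others added 0.1 in place of 1, dropped the filter or raised it to 5, scaled by median of ratios or by quantiles, or used library weights or no trend. The series was the first digit of the animal number. DMSO+Sham mouse 1 was thus alone in its series and added nothing to the group differences of the covariate fit. Upstream sequences came from RefSeq on GRCm38.p6, and shared 50-base stretches from GENCODE transcripts, read with Python 3.11.15. The fit was tested on simulated data.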

Additional observations from a re-analysis of the deposited data

How the results depend on the processing

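Between DMSO+AB and DMSO+Sham, the log2 difference of Phkg1 lay between -1.98 and -1.51 over 22 alternatives and that of Pfkfb1 between -2.20 and -1.38; since these mice also chose the genes, this describes the fits and is no support. Of the 9 genes, 2 were called there (608 of all genes), 1 when the animal number series was a covariate (142 of all) or only the libraries compared were fitted (11 of all), and between 1 and 2 with each library left out. The covariate also sets DMSO+Sham 1 aside, as this library is alone in its series. The count was 1 without DMSO+Sham 1, DMSO+AB 2 or DMSO+AB 3, where 91, 104 and 190 of all genes were called. It was 3 with library weights, with Pygm added at a log2 difference of -0.52. Of the pathway genes, 5 were called, 3 with the covariate, 1 with only the libraries compared, and between 2 and 6 with each library left out (3 without DMSO+Sham 1, 2 without DMSO+AB 2). Over these alternatives the limma adjusted p lay between 0.00184 and 0.049 for Ppp1r3c, and reached 0.0906 for Pfkp, 0.135 for Ugp2 and 0.14 for Fbp2. Between hispidulin+AB and hispidulin+Sham, 0 of the 9 were called, but 1, Phkg1, with library weights (209 of all genes called), with only the libraries compared (49) or without DMSO+AB 1 (10), and between 0 and 1 over the libraries left out. With library weights, 5 members and 13 pathway genes were called in the averaged comparison, against 2 and 5, where 2535 of all genes were called against 862. The replicate block gave 2 members and 5 pathway genes between the DMSO groups and changed no call of a member, and 17 genes of all were called between the hispidulin groups, against 0. Between the sham groups, Fbp2 changed from -0.0043 to 0.00867 with median-of-ratios scaling, 0.0266 with quantile normalization and 0.0978 with the covariate, and lay between -0.112 and 0.171 with each library left out. Ugp2 became -0.0235 there with library weights. With 1 added to each FPKM, the Phka1 share was 69.2% in DMSO+AB and 70.5% in hispidulin+AB, and the Pfkfb2 share 63.0% in hispidulin+AB. The cause of these changes was not tested. Other scalings moved the median of all genes by under 0.1 on the log2 scale. With 3 mice per group and unknown depth, the smallest difference that these fits could resolve was not determined.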
